A study of Homo sapiens with 172 samples.

Results

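The regions described here are the pieces of chromosome 22 that the translocation t(9;22) rearranged, together with the end of chromosome 9 that it moved. They were chosen by position in a table of 100 kb bins that gives chromosomes 9 and 22 as a joined pair, 22:9 and 9:22. Members are all covered bins of 22:9 and the covered bins of 9:22 that start beyond 134000000. They number 414 of the 26414 bins with signal in any cell, 142 on 22:9 and 272 on 9:22. The bins were chosen by position, not by a cut on measured values, but with earlier results of these data known. The other 26000 bins served for comparison.

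DamID marks DNA that touches the lamina, a mesh of proteins lining the inside of the nuclear envelope, and was done here on individual KBM7 cells, from a human leukaemia line with a nearly haploid genome. All 172 samples belong to 1 group, haploid cells (1N) of the single clone 5-5, which carried Dam methyltransferase fused to LaminB1. All were treated with 0.5 nM Shield1 for 15 h and, among those expressing both Fucci cell-cycle markers, the smallest 2% were sorted. The table has a column for 168 samples, and by their values, columns 86 numbers apart came from 1 cell and were averaged, which left 84 cells. With 1 group and no separate cultures, nothing was tested between groups. Every SD below is over cells and describes variation between cells, not replicate error.

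The Philadelphia translocation joins the start of BCR on chromosome 22 to most of ABL1, a tyrosine kinase gene from the far end of chromosome 9, and the fusion kinase drives chronic myeloid leukaemia. It leaves a short derivative, here 22:9, made of the centromere side of chromosome 22 and the tip of chromosome 9. The reciprocal derivative, here 9:22, carries most of chromosome 9 followed by the rest of chromosome 22. Chromosome 22 is known as a gene-rich chromosome that usually lies in the nuclear interior, whereas regions at the lamina are mostly gene-poor and silent.

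The assay reads only GATC, the letters that Dam methylates and DpnI cuts. As an example of GATC at the genes of the junctions, 1 RefSeq promoter window of each is printed 5′ to 3′, with GATC in capitals. The windows run from 250 bases before to 50 after the start taken for each gene, on the plus strand of GRCh38.p14. A gene may have other starts, which are not shown. The ABL1 window, chr9:130835004-130835303, holds 1 GATC, at base 80. The BCR window, chr22:23180259-23180558, holds 0. Of all 35116 promoter windows of this length, 41.7% hold GATC, which reads the same on both strands. These positions belong to another build than the bins, which are in hg19, and were not set against them. Contact was read over 100 kb bins, so a promoter without GATC can still lie in a bin with reads.
ABL1: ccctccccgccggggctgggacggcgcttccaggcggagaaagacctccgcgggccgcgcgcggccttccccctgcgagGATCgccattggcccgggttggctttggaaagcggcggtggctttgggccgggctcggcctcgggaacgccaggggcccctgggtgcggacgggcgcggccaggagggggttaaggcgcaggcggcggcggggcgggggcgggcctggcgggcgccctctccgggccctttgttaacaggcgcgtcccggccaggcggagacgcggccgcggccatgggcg
BCR: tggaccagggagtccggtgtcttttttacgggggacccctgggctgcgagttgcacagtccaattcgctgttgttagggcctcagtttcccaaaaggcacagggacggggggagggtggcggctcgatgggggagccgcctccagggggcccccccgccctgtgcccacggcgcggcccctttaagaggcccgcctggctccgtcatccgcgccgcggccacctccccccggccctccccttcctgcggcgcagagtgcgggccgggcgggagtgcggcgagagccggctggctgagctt

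The value in each bin and cell is the ratio of observed over expected reads, and contact was defined as a ratio of 1 or more. The reads behind the ratios were worked back from the values. The deeper column of a cell held 7134 to 418937 reads, with a median of 63700. For a bin of median expectation, a ratio of 1 corresponded to 2.66 reads in a typical (median) cell, and in 13 of 84 cells to 1 read or less. Some cells were set apart but kept: cell 48, with reads in 96.6% of covered bins, the shallow cells 54 and 56, with 14065 and 11412 reads, and cells 63, 69 and 79, in which whole chromosomes had almost no contact. That trait is not theirs alone. Cell 36 had 0% of chromosome 19 in contact, and cell 27 had 0.389% of chromosome 17 and 1.42% of chromosome 21. Low depth is not particular to cells 54 and 56 either. Cells 19, 29 and 22, which were not set apart, held 7134, 8372 and 9913 reads. Some values without the cells set apart are given below, and they still include shallow cells.

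Chromosome 22 material and the moved chromosome 9 end were rarely at the lamina. The members had 3.28% ± 2.98 of their bins in contact per cell, against 28.1% ± 6.65 of all other bins (SD, n = 84 cells). The difference was -24.9 ± 6.99 percentage points, and the members were lower in 84 of 84 cells. Over cells the members' contact share was lowest at 0%, had a median of 2.66% and was highest at 16.4%. In 6 cells no member bin was in contact, and in 78 cells at least 1 was.

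The 3 pieces differed. The chromosome 22 side of 22:9, taken up to 24 Mb, had 2.27% ± 2.77 of its 72 bins in contact. The chromosome 9 end of 22:9, its remaining 70 bins, had 0.782% ± 1.56. The distal piece of 9:22, which is the outer part of chromosome 22, had 4.18% ± 4.12 of its 272 bins in contact (SD, n = 84 each). The chromosome 9 end had no contact in 62 of 84 cells, the chromosome 22 side in 32 and the distal piece in 10.

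Taken as wholes, 22:9 had 1.53% ± 1.79 in contact and the distal piece of 9:22 had 4.18% ± 4.12. The difference was -2.65 ± 3.86 points, smaller than its SD over cells. It had the same direction in 66 cells, the opposite one in 12 and was 0 in 6. Without the 2 Mb stretch of 9:22 (positions 143600001 to 145600000) it was -1.02 points. That stretch was picked for its high contact frequency, so leaving it out had to shrink the difference. Within 22:9, the chromosome 22 side exceeded the chromosome 9 end by 1.48 ± 2.75 points, and was higher in 42 cells, equal in 29 and lower in 13. This difference is also smaller than its SD over cells. Where a contact needed 3 reads, the shares of these 2 pieces were 0.397 and 0.119%.

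**Figure D1:**
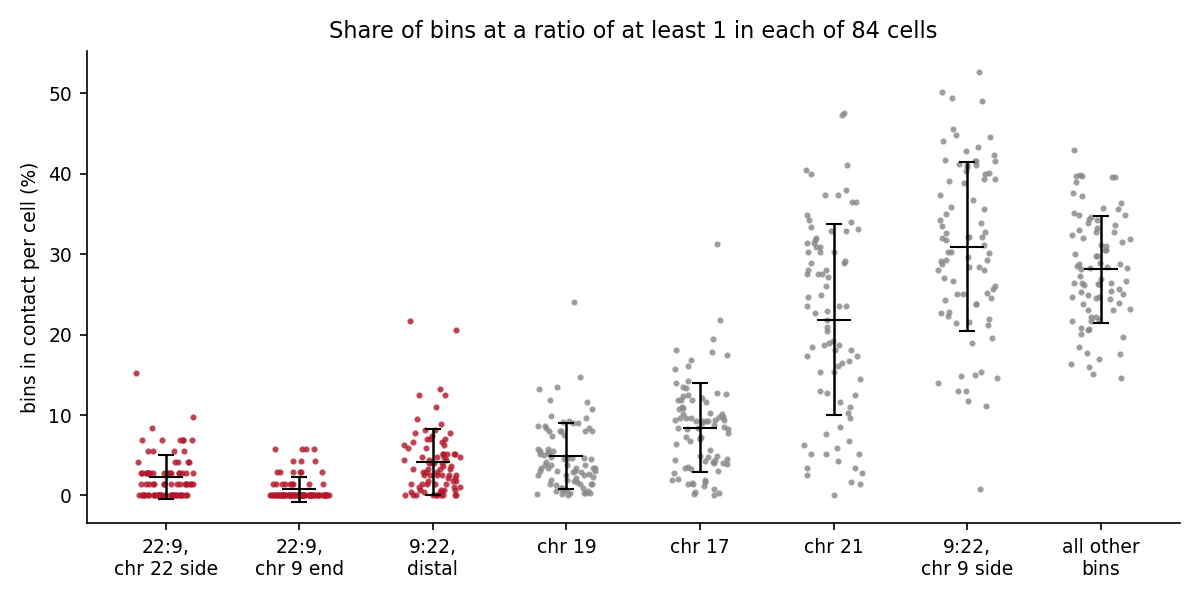
Each point is 1 of 84 cells, the vertical axis is the percent of a region's bins at a ratio of at least 1, and bars give the mean ± SD over cells. The 3 pieces, in red, average 2.27, 0.782 and 4.18%, below chromosomes 19, 17 and 21, the chromosome 9 side of 9:22 and all other bins, in grey.

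The mean ratio gave the same picture of low signal, but not the same order of the pieces. It was 0.135 ± 0.103 over all members, against 0.936 ± 0.0369 over the other bins. By piece it was 0.185 ± 0.308 on the chromosome 22 side of 22:9, 0.0443 ± 0.0595 on its chromosome 9 end and 0.145 ± 0.119 on distal 9:22. The first of these values holds bins at the start of the covered part of 22:9, from 16000001 on, where the expectation was 1 to 5 reads.

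At 16100001 to 16200000, with an expectation of 1 read, the ratio averaged 2.80 and reached 58.2, while the deeper columns held 4 reads in all. At 16500001 to 16600000, also with an expectation of 1, the ratio reached 97.5 on 2 reads in all. When each cell's share of reads was divided by the share of the expectation, so that bins counted by their expectation, the order followed the contact shares. The chromosome 22 side then had 0.0837 ± 0.0891, the chromosome 9 end 0.0430 ± 0.0594 and the distal piece 0.159 ± 0.122. By this measure 22:9 was below the distal piece in 72 of 84 cells, with a difference of -0.0980 ± 0.102.

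Chromosomes 19 and 17, both known as gene-rich, and chromosome 21, small like chromosome 22, were taken for comparison. The members had 3.28% in contact, against 4.89% ± 4.13 on chromosome 19, a difference of -1.61 ± 4.21 points with the members lower in 55 of 84 cells. This difference is smaller than its SD over cells, and was -0.680 points where a contact needed 3 reads. With chromosome 17, at 8.44% ± 5.58, the difference was -5.17 ± 4.74 points, with the members lower in 71 cells. With chromosome 21, at 21.8% ± 11.9, it was -18.6 ± 12.4 points, with the members lower in 79 cells.

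Gene number could be placed by order along the chromosome. In RefSeq's GRCh38.p14 gene table, 105 protein-coding genes start on chromosome 22 up to and including BCR, 346 beyond it, and 145 on chromosome 9 beyond ABL1. Per covered Mb this gave 14.6 genes for the chromosome 22 side of 22:9, 20.7 for the chromosome 9 end and 12.7 for distal 9:22. Among 23 units, the 4 pieces of the joined pair and the chromosomes other than 8, 9, 15 and 22, these densities ranked 4, 2 and 5 from the highest. Their contact shares ranked 2, 1 and 3 from the lowest.

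Chromosome 19, with the highest density at 26.0 genes per covered Mb, ranked 4 from the lowest in contact at 4.89%. The distal piece had 4.18% in contact at 12.7 genes per covered Mb, and chromosome 17 had 8.44% at 15.1. The chromosome 9 side of 9:22, with 6.05 genes per covered Mb, had 30.9%. Genes in bins without signal are included in these counts, and units of a chromosome share libraries and depth, so that the ranks are a description.

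**Figure D2:**
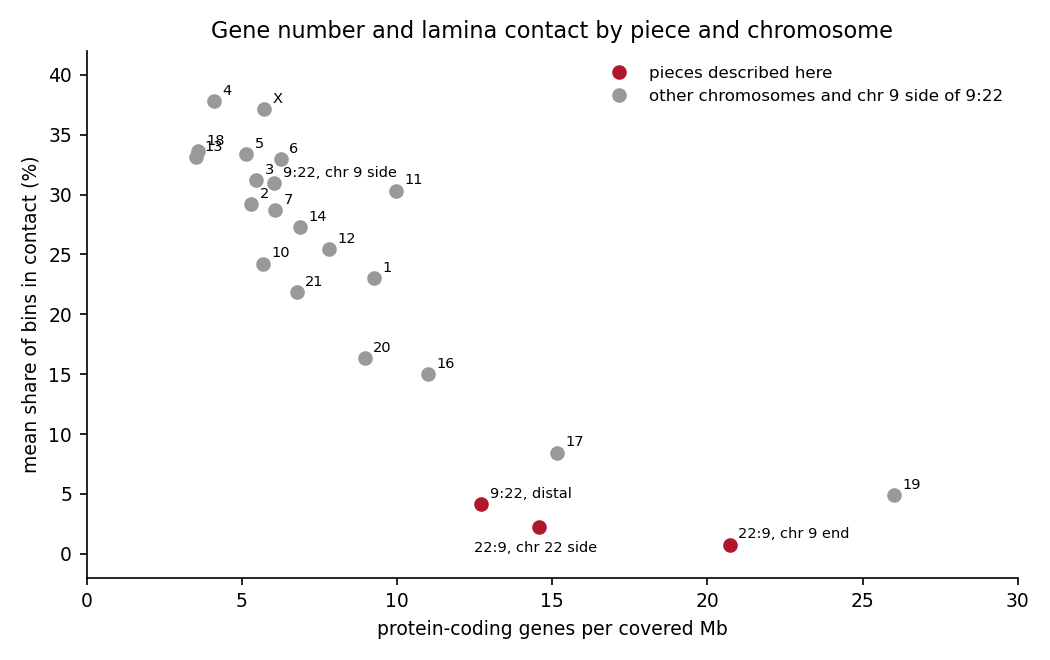
Points are pieces (red: the 3 described here; grey: the chromosome 9 side and other chromosomes), with protein-coding genes per covered Mb on the horizontal axis and the mean share of bins in contact over 84 cells on the vertical axis. The 3 red points have the lowest contact shares of the 23 units, at 12.7 to 20.7 genes per Mb.

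Seen bin by bin, contact was rare almost everywhere. A bin's contact frequency is the percent of the 84 cells in which it was in contact. Among the members 107 bins (25.8%) were contacted in no cell, against 6.19% of all covered bins. A count of 0 of 84 cells allows a frequency of up to 3.57% by a floor of 3 cells, and of up to 4.30% by the exact Clopper-Pearson 95% interval. Another view is that 362 members (87.4%) were contacted in under 5% of cells, against 36.7% of all covered bins.

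At the upper end, 28 members (6.76%) reached 10% of cells, against 55.4% of all covered bins, and 16 (3.86%) reached 20%, against 47.7%. All 16 lie on distal 9:22, and 27 of the 28 do. No bin of 22:9 reached 20%. The chromosome 9 end was the emptiest piece, with 38 of 70 bins contacted in no cell and a highest frequency of 4.76%, or 4 of 84 cells.

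The longest stretches without contact in any cell were 0.5 Mb each. Along 22:9 they lay at 26200001 to 26700000 and 26800001 to 27300000, both in the chromosome 9 end, and along 9:22 at 160700001 to 161200000, near the end of chromosome 22. The deeper columns of all cells together held 74, 21 and 77 reads there, so reads were present although no cell reached a ratio of 1.

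**Figure D3:**
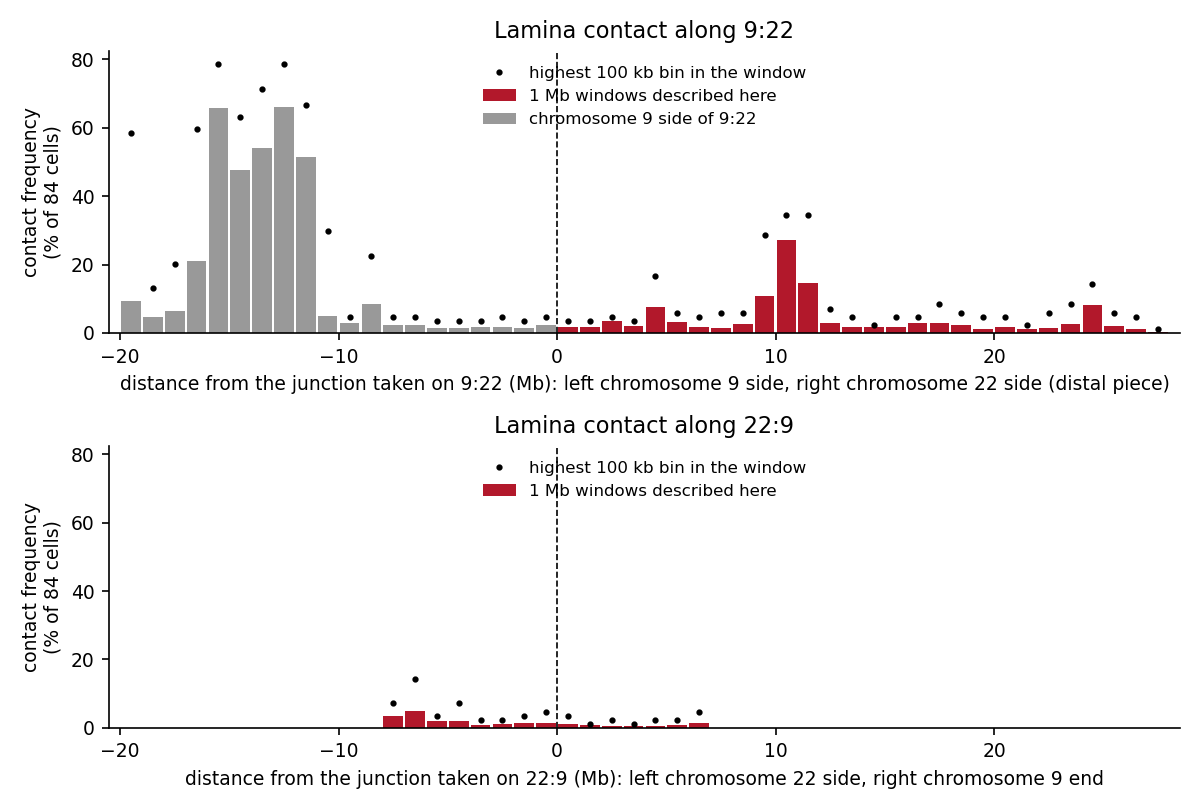
Bars give the mean contact frequency (percent of 84 cells) of 1 Mb windows and dots their highest 100 kb bin, by distance in Mb from the junction taken on each derivative (red: windows described here; grey: chromosome 9 side of 9:22). Windows on 22:9 stay at or below 5% and its bins at or below 14.3%. Distal 9:22 has 1 broad rise about 10 Mb past the junction, where windows reach 27.3% and bins 34.5%.

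Contacts on the distal piece were concentrated. Stretches of at least 3 adjacent bins contacted in at least 10% of cells were found at 3 places, all on 9:22. The longest ran from 143600001 to 145600000, that is 2 Mb or 20 bins, with a mean frequency of 24.7%. It holds 7.35% of the bins of the distal piece and 43.4% of its contacts. Without it the distal piece had 2.56% ± 3.36 of its bins in contact. The shorter ones ran from 138600001 to 139000000, with 15.5%, and from 158100001 to 158400000, with 13.1%. These stretches were picked by their frequency, so that their height is a description.

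The 10 members with the highest frequency all lie in the 2 Mb stretch, between 143800001 and 145200000. The bins that shared the top frequency of 34.5%, or 29 of 84 cells (exact Clopper-Pearson 95% interval 24.5 to 45.7%), were 144700001 to 144800000, 145100001 to 145200000 and 144200001 to 144300000. At the first of them the ratio had a median of 0.425 over cells and a highest value of 6.22, with reads in 52 of 84 cells. The tenth, 143800001 to 143900000, was in contact in 21 cells (25.0%). Intervals cover counting error only and make no allowance for the choice of the highest bins.

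Among all bins these frequencies are not high. The top frequency of 34.5% was above 60.5% of all covered bins. The 16 members at 20% or more had a median frequency of 26.2%, whereas the 541 such bins on the chromosome 9 side of the same derivative had 60.7% and the 34 on chromosome 19 had 31.5%.

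The frequency fell off over a few bins at both edges of the 2 Mb stretch. On the side of the junction the frequency was 4.76% at 143400001 to 143500000, 7.14% in the next bin, 15.5% in the first 2 bins of the stretch and 25.0% in the third. On the side of the chromosome end it was 34.5% at 145100001 to 145200000, then 21.4, 20.2 and 19.0% in the next bins, 13.1% in the last bin of the stretch, 5.95% just past it and 1.19% in the bin after that. No cell was in contact at 145900001 to 146000000.

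Cells differed widely in this stretch. It had at least 1 bin in contact in 59 of 84 cells and none in 25, and the median cell had 15.0% of its 20 bins in contact. In 18 cells at least 50% of the bins were in contact, in 8 at least 80%, and in cell 74 all of them, as a single run of 20 bins. Cell 74 held 616 reads in the stretch and cell 36, with 18 bins in 1 run, held 691. Cells 5 and 69 had 19 bins each in contact.

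Runs of adjacent bins in contact reached at least 5 bins in 19 cells and at least 10 bins in 7 cells. Elsewhere they were shorter. On 22:9 the longest run was 5 bins, in cell 21. On distal 9:22, with the bins of the stretch taken out and its flanks joined, the longest was 8 bins, in cell 69. There, 8 cells had runs of at least 5 bins. In cell 69 the 6 bins before the stretch and the first bin past it were in contact. Its run of 8 may therefore join bins from both sides of the stretch. Contact calls of neighbouring bins in the stretch correlated over the 84 cells at a mean r of 0.48 (19 pairs, 0.18 to 0.59), and those of its first and last bins at 0.32. Neighbouring bins share a library and its depth.

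**Figure D4:**
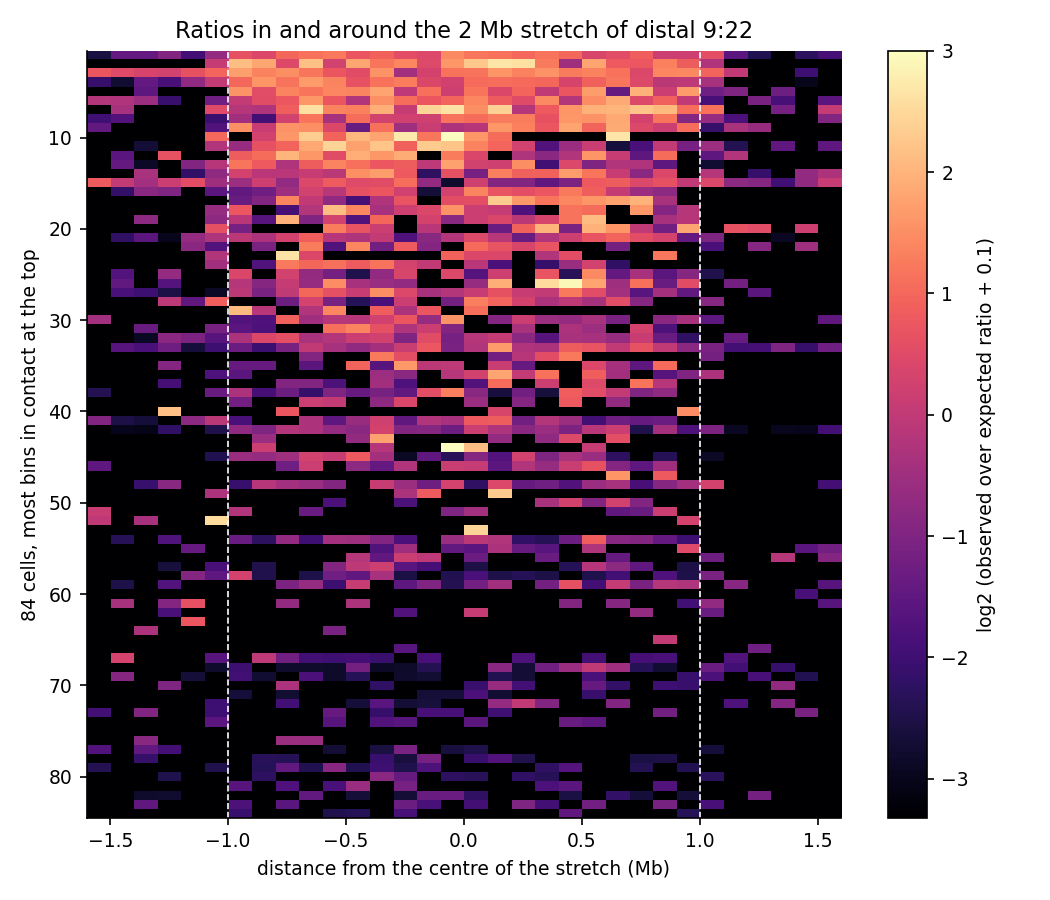
Rows are the 84 cells, ordered by the number of bins in contact within the stretch, columns are 100 kb bins by distance in Mb from its centre, and colour is log2 of the ratio plus 0.1. Dashed lines mark the 2 Mb stretch; cell 74, in the top row, is at a ratio of 1 or more across it and in 1 bin just past it, cell 69 is also in contact in the 6 bins before it, and 25 cells have no bin of the stretch in contact.

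Where bins were in contact, the median ratio was 1.84 in the stretch (25th to 75th percentile 1.31 to 2.65, 415 contacts), 1.62 on the whole distal piece, which includes it, and 2.34 on the chromosome 9 side (1.58 to 3.64). In the 35 cells with at least 100000 reads the medians were 1.71 in the stretch and 2.28 on the chromosome 9 side. Every contact has a ratio of at least 1, so these medians describe contacts only.

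Contacts in the 3 stretches were compared over cells, as a description. The 2 Mb stretch and the one at 138600001, 4.6 Mb apart, had contacts in 59 and 24 cells and in 18 cells together, and their shares correlated over cells at r = 0.12, or 0.023 in the 78 cells left without cells 48, 54, 56, 63, 69 and 79. The 2 Mb stretch and the one at 158100001, 12.5 Mb apart, had r = 0.20, or 0.11 in the 78 cells. The shorter ones, 19.1 Mb apart, had r = 0.53, or 0.47 in the 78 cells.

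Contact calls on 22:9 rested on very few reads. Of its 183 contacts, 93 (50.8%) had 0 or 1 read in the deeper column of the cell, 59 (32.2%) had 2 and 31 (16.9%) had at least 3. On distal 9:22 the shares were 16.2, 18.6 and 65.2% of 956 contacts. In the 2 Mb stretch 84.8% of 415 contacts had at least 3 reads, close to the 84.3% of all other bins.

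Requiring at least 3 reads for a contact left 0.397% ± 1.00 on the chromosome 22 side of 22:9, 0.119% ± 0.673 on the chromosome 9 end and 2.73% ± 3.84 on distal 9:22. These compare with 2.27, 0.782 and 4.18% without that demand. The mean frequency of the 2 Mb stretch was 21.0% with it and 24.7% without. Over cells, the contact share of 22:9 fell with the logarithm of a cell's reads (r = -0.39, Spearman's rho = -0.46, n = 84), while that of the chromosome 9 side rose (r = 0.51, rho = 0.54).

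**Figure D5:**
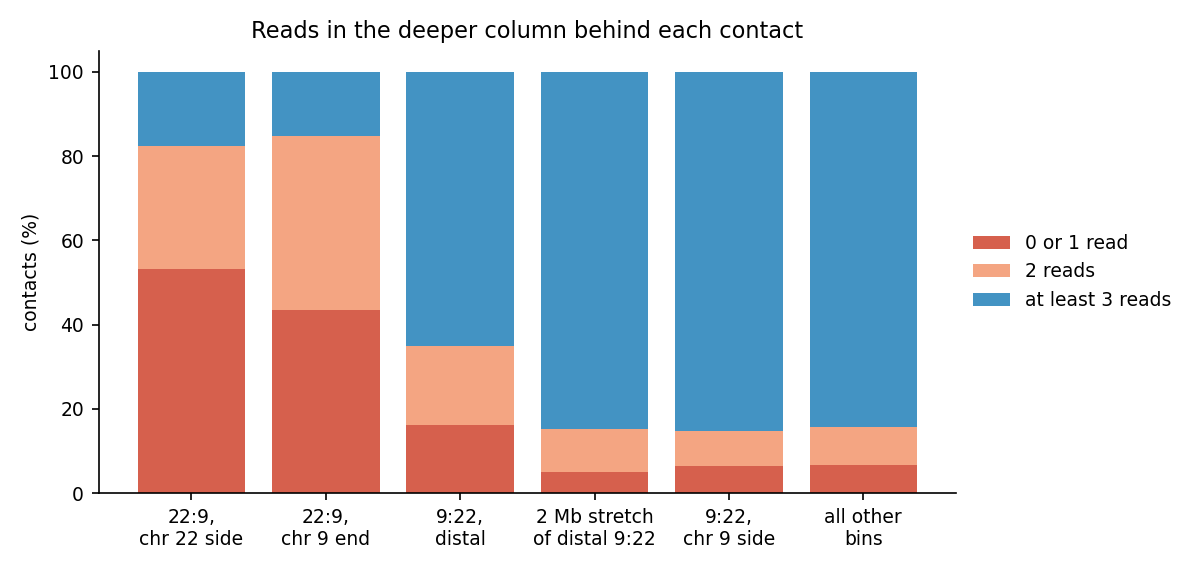
Stacked bars give, for each region, the percent of its contacts that had 0 or 1, 2, or at least 3 reads in the deeper column of the cell. At least 3 reads stood behind 17.5 and 15.2% of contacts on the pieces of 22:9, 65.2% on distal 9:22, 84.8% in its 2 Mb stretch and 84.3% in all other bins.

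The bin of 22:9 with the highest frequency shows the same. At 17000001 to 17100000, with an expectation of 32 reads, it was in contact in 12 of 84 cells (14.3%, exact interval 7.61 to 23.6%), and 11 of these calls had 1 read or none in the deeper column. The bin at 17200001 to 17300000, with an expectation of 140, is better covered. It was in contact in 8 cells (9.52%) with a median of 4 reads per contact. Of the 16 members with an expectation under 100, 14 lie on the chromosome 22 side of 22:9. With such bins left out, 22:9 had a mean ratio of 0.0607 and 1.24% of its bins in contact.

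Contact was low on both sides of the junctions. The file does not mark where the chromosomes join, so the junctions were taken at 134 Mb on 9:22 and at 24 Mb on 22:9. The true joins may lie elsewhere, so bins next to these cuts may belong to the other chromosome. On 9:22 the first 5 Mb of chromosome 22 material had a mean ratio of 0.127 ± 0.171 and the last 5 Mb of the chromosome 9 side had 0.0798 ± 0.122 (SD, n = 84). The difference of 0.0469 ± 0.154 is smaller than its SD over cells, and was positive in 57 of 84 cells. With bins within 1 Mb of junctions and ends left out it was 0.0610 ± 0.181. By 1 Mb window, going away from the junction, the chromosome 22 material had mean ratios of 0.0657, 0.0747, 0.142, 0.113 and 0.232, and the last of these windows holds the stretch at 138600001. The windows of the last 5 Mb of the chromosome 9 side had 0.0633 to 0.0919. In the 1 Mb windows that meet at the junction the mean ratios were 0.0657 on the chromosome 22 side and 0.0812 on the chromosome 9 side, and the contact frequencies 1.72 and 2.38%.

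On 22:9 the first 5 Mb of the chromosome 9 end had a mean ratio of 0.0409 ± 0.0606, and the last 5 Mb of the chromosome 22 side had 0.0666 ± 0.0871. The difference of -0.0257 ± 0.0600 is again smaller than its SD, and was negative in 56 of 84 cells. With bins within 1 Mb of junctions and ends left out it was -0.0294 ± 0.0596. The adjoining 1 Mb windows had 0.0618 past the junction and 0.0717 before it, with contact frequencies of 1.07 and 1.43%. Both junctions lie in wide regions of low contact. On 9:22 the nearest bins contacted in at least 20% of cells are at 143800001, 9.8 Mb past the junction, and at 125400001 to 125500000, 8.5 Mb before it, and the 18.3 Mb between them had a mean frequency of 2.65%.

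The distal piece and the chromosome 9 side belong to the same derivative but had very different contact. The distal piece had 4.18% in contact and the chromosome 9 side 30.9% ± 10.5, a difference of -26.7 ± 9.96 points in the same direction in 84 of 84 cells. Over cells their shares correlated weakly (r = 0.32, rho = 0.16, n = 84, and r = 0.20 in the 78 cells). The share of the 2 Mb stretch and that of the chromosome 9 side had r = 0.41 (rho = 0.38), and r = 0.25 after a linear fit on each cell's share in all other chromosomes.

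Between 22:9 and the distal piece r was 0.36 (rho = 0.29, and r = 0.26 in the 78 cells). Chromosomes outside the joined pair gave values of like size or larger. The distal piece had r = 0.52 with chromosome 17 (0.26 in the 78 cells) and 0.29 with chromosome 19 (0.30). For 22:9 these were 0.29 with chromosome 17 (0.16) and 0.32 with chromosome 19 (0.26). All these values come from 84 libraries of unequal depth. The part of depth in them was not tested.

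The ends of both derivatives were low. The last 2 Mb with values had a mean contact frequency of 1.13% on 22:9, which is the end of chromosome 9, and of 1.49% on 9:22, which is the end of chromosome 22. At the inner end of 22:9, the first window with values, which starts at 16000001, had a mean frequency of 3.44%. The next, which starts at 17000001, had the highest of that derivative, 5.00%. In the first window expectations were 1 to 17 reads, and every contact had 1 read or none in the deeper column. In the next, the bin at 17000001 had an expectation of 32, with 11 of 12 calls on 1 read or none. These values therefore do not show a rise of contact at this end.

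Single cells stood out. The members' contact share was highest in cell 48, at 16.4%, followed by cell 69 at 14.0% and cell 72 at 10.9%. Cell 48 had reads in 96.6% of all covered bins and 39.3% of them in contact, and cell 69 had 95.0% of the 2 Mb stretch in contact. Cell 72 also had 24.0% of chromosome 19 in contact. The 6 cells without any member in contact were cells 11, 35, 45, 67, 79 and 80. On the chromosome 9 side they had 14.8, 32.0, 13.9, 30.1, 0.860 and 32.1% in contact, in this order, so that 3 of them were far below the mean of 30.9% there and 3 were near it. Without cells 48, 54 and 56 the distal piece had 3.91% ± 3.68 in contact, and without cells 63, 69 and 79 it had 4.08% ± 3.72. The share of member bins contacted in no cell was 25.8% with all cells. It was 31.2% without cells 48, 54 and 56, and 26.8% without cells 63, 69 and 79.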

How the data were processed

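DamID reads of single KBM7 cells were the starting point. The authors used cutadapt, Bowtie2 2.1.0 and the hg19 build, per the submitters' processing notes. The handling of duplicates and the source of the expectation are not stated there. The deposited values are observed-to-expected ratios per 100 kb bin. Of 30376 bins, 3792 have no value and 170 hold only zeros. Of 172 samples, 168 have a column and 4 are not analysed here.

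Each column correlated best, over log reads, with the one 86 numbers away (168 of 168), and pairs were averaged as 1 cell. Reads and expectations (1 to 592 per bin, median 316) were recovered as whole multiples of a step per bin and column, within 0.02 for 100% of values above 0. The recovery was tested on simulated data. Reads had no molecular identifiers, so PCR copies may be counted, and intervals and floors cover counting error only.

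Cells are not replicates, so no p-value was made. Members and comparisons were chosen with earlier results of these data known. Regions were named by rule: the 10 members of highest frequency, stretches of at least 3 adjacent members at 10% or more, the 3 longest contacted in no cell, and the 3 highest and lowest cells. Bins of 22:9 named beside them, and cells in the 2 Mb stretch, were chosen after their values were seen. Genes were counted by order along the chromosome only, and none was placed in a bin. Python 3.11.15 with numpy 2.4.6, pandas 2.3.3 and scipy 1.17.1 was used. The alternatives were other cutoffs, columns, depths, bins and cells.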

Additional observations from a re-analysis of the deposited data

How the results depend on the processing

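Over 14 alternatives to the settings, 191 of 204 recomputed values stayed within the limits set for no change, 13 moved and 0 reversed. These limits were wide, so staying within them does not mean a stable value. The contact share of 22:9 was 0.260% where a contact needed 3 reads, against 1.53%, and counted as unchanged. So did that of distal 9:22 at a cutoff of 0.5, with 8.24% against 4.18%. With a cutoff of 0.5 for contact, the contact share was 6.65% for the members and 3.60% for 22:9, and 6.76% of member bins reached 20% of cells. With cutoffs of 1.5 and 2, 1.69% and 0% did. The share of member bins contacted in no cell was 5.07, 47.3 and 59.2% at cutoffs of 0.5, 1.5 and 2. It was 66.9% over the cells of at least 100000 reads, and 60.4% where a contact needs 3 reads. Cells 1 to 29 gave 48.8%, and cells 30 to 86 gave 45.4%. Fewer cells were counted in the deep cells and in both cell ranges, and fewer calls pass where 3 reads are needed. At a cutoff of 2 the members were -15.3 points from all other bins. The 22:9 contact share minus that of distal 9:22 lay between -4.64 and -0.792 points over all alternatives, and was below 0 in 15 of 15. Leaving out the longest stretch and the weighting by expectation were added after the data were seen, and moved none of 7 values past these limits. Cutoffs do not enter mean ratios.

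No pairing of samples between groups was possible because all samples belong to 1 group, and the numbers in the labels name samples. Regions were compared within each cell. Depth limits the low end: contact in 0 of 84 cells allows up to 3.57% by a floor of 3 cells and 4.30% by the exact interval. Calls on 22:9 mostly had 2 reads or fewer in the deeper column of the cell. The table gives no replicate cultures, no second clone and no junction position, and no genome of its build was used, so genes were not placed in bins.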
